A study of Homo sapiens with 6 samples.

Results

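The genes described here encode the 4 inhibitor of DNA binding proteins (ID1, ID2, ID3 and ID4) and the 3 E proteins with which they pair (TCF3, also known as E2A, TCF4, also known as E2-2, and TCF12, also known as HEB). RNA was taken from MDA-MB-231, an established triple-negative human breast cancer cell line, 48 hours after a control treatment (3 samples) or siRNA against HMGA1 (3 samples). It was hybridized to Affymetrix Human Exon 1.0 ST arrays. A single cell line was used. The sample titles call the first group control treated cells, and the methods speak of vector RNA. It is named control siRNA here. The labels call the second group both shHMGA1 and siHMGA1, and it is taken here as siRNA after the methods. The array values were deposited on the log2 scale for 22011 transcripts. The members were chosen by the platform's gene annotation, as transcripts that list a member alone, and the transcript of the highest mean level would have been taken where a gene had several. Each of the 7 genes had exactly 1 such transcript, so 7 of the 22011 transcripts, or 7 of the 14232 genes with a transcript of their own, are described. TCF3 and TCF4 carry the Entrez identifiers 6929 and 6925, which are those of the E proteins and not of the Wnt pathway factors that have shared these names. The family was proposed with earlier results of these arrays in view, including the values of ID2, so the differences between the groups describe these arrays and are not independent evidence.

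E proteins are basic helix-loop-helix transcription factors. They bind E-box sequences in DNA as pairs with each other or with tissue-specific partners such as MYOD1, TWIST1 and TAL1, and in many tissues these pairs turn on genes of differentiation and of cell cycle arrest. ID proteins have the helix-loop-helix but lack the basic region that contacts DNA, so an E protein paired with an ID protein cannot bind. ID genes are classic early targets of bone morphogenetic protein (BMP) signals through SMAD1 and SMAD5, and in breast cancer ID1 and ID3 are known for a role in the growth of metastases.

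The targeted gene was read from the transcript whose annotation lists HMGA1 with the pseudogene HMGA1P8. It read 10.11, 10.25 and 10.35 (log2) after control siRNA and 9.81, 9.65 and 9.76 after HMGA1 siRNA. The groups thus did not overlap (log2 difference -0.50, SE 0.10, adjusted p = 0.806 from limma), as in 3.51% of all transcripts in this direction. A further transcript lists HMGA1 together with APOE, and its groups overlapped (log2 difference -0.12, SE 0.13). The cell line was set against its markers, which is a coarse description, since probes of different genes differ in brightness. Of 9 measured markers of mesenchymal-like breast cancer cells, 8 (VIM, CD44, EGFR, AXL, CAV1, MSN, PLAU and ANXA1) lay in level bin 5 and SPARC in bin 2, while the hormone receptor genes ESR1 and PGR lay in bins 2 and 1. Bins run from 1 (dimmest) to 5 (brightest) and split the transcripts evenly by mean level. Of the other luminal and HER2 markers, ERBB2 (HER2), KRT8, KRT18 and KRT19 lay in bin 5 and GATA3, FOXA1, EPCAM and CDH1 in bin 3. These bins cannot show whether a receptor is present or absent. Of the markers of other cell types, PTPRC and CD3E (leukocytes), PECAM1 (endothelium) and ALB (liver) lay in bin 1, CDH5 (endothelium) in bin 2 and COL1A1 (fibroblasts) in bin 3. The correlation between arrays over transcripts ranged from 0.982 to 0.995. At an adjusted p of 0.05 limma called 0 of the 22011 transcripts (0%) in either direction, while 728 (3.31%) had an unadjusted p under 0.05. Both arrays numbered replicate 3 in the labels stood apart in several genes below, and the differences between the groups in ID1, ID2 and ID3 are therefore also given without them.

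The sequence upstream of each ID gene is shown because HMGA1 proteins bind the minor groove of AT-rich DNA. The windows are the 250 bases before the RefSeq start of transcription (GRCh38.p14), in lower case, with runs of 6 or more A or T bases in capitals. They lie at chr20:31605039-31605288 (plus strand) for ID1, chr2:8681806-8682055 (plus strand) for ID2, chr1:23559502-23559751 (minus strand) for ID3 and chr6:19837120-19837369 (plus strand) for ID4.
ID1: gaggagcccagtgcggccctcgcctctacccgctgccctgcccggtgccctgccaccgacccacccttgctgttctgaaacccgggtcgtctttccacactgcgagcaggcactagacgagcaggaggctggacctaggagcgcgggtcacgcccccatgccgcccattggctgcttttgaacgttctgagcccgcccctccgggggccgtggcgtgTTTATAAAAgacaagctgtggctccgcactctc
ID2: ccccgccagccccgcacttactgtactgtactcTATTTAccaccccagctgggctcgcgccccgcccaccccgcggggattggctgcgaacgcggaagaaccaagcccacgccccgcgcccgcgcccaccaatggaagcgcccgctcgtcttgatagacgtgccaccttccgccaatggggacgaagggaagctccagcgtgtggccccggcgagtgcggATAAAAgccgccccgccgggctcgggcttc
ID3: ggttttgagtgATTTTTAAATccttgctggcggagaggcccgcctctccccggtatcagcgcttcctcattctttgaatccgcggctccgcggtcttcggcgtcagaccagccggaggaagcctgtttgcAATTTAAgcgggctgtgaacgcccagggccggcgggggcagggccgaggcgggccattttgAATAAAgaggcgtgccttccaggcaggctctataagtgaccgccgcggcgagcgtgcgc
ID4: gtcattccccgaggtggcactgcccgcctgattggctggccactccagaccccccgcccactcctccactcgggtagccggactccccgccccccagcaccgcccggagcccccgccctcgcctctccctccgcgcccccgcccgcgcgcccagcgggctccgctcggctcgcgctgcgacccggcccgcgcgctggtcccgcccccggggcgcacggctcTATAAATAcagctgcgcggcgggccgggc
ID1 and ID4 each have 1 run in this window, ID2 has 2 and ID3 has 3. A run of this kind was present in 58.7% of all 35116 windows of the same length, and 3 or more runs in 26.7%. The GC content was 66.0% for ID1, 69.2% for ID2, 62.0% for ID3 and 78.8% for ID4. The motif TATAAA, searched on both strands, was found in ID1 and ID4 (10.7% of all windows) and lies within their A and T runs. CCAAT, on both strands, was found 3 times in ID2, once each in ID1 and ID4 and not in ID3. It was present in 32% of all windows, and 3 or more times in 2.81%. The E-box CANNTG, which reads the same on both strands, was found in ID2 and ID4 (61.8% of all windows). GGCGCC, a GC-rich sequence found in BMP-responsive elements, was in none of the 4 windows (16.4% of all windows). These matches describe letters in the windows and are not evidence of binding.

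Among the ID genes, the mean levels of ID1, ID2 and ID3 were higher with HMGA1 siRNA, by 0.35, 0.80 and 0.59 on the log2 scale, while ID4 differed by -0.059. ID2, an inhibitor of E proteins that is also known to bind the retinoblastoma protein, read 10.07, 9.83 and 8.89 (log2) after control siRNA and 10.59, 10.77 and 9.82 after HMGA1 siRNA. The HMGA1 siRNA replicate 3 array lay between the control arrays, so the groups overlapped, and replicate 3 was the lowest array of each group. The group means differed by 0.80 on the log2 scale (SE, the standard error, 0.35, 95% interval -0.015 to 1.62), or 1.74-fold, and the adjusted p from limma over all transcripts was 1.00. Its size was exceeded by 33 of the 22011 transcripts. The SD within groups, pooled over both, was 0.57, larger than that of 98.7% of transcripts, where the median transcript had an SD of 0.15.

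ID3, which is often induced together with ID1, read 8.85, 9.19 and 10.02 after control siRNA and 9.44, 9.85 and 10.53 after HMGA1 siRNA. The groups overlapped, and replicate 3 was the highest array of each group. The group means differed by 0.59 (SE 0.35, 95% interval -0.24 to 1.41, adjusted p = 1.00 from limma), a size exceeded by 137 transcripts. ID1, which restrains E proteins in many proliferating cells, read 10.17, 10.40 and 11.05 after control siRNA and 10.64, 10.71 and 11.33 after HMGA1 siRNA. Again the groups overlapped and replicate 3 was the highest array of each. The group means differed by 0.35 (SE 0.26, 95% interval -0.26 to 0.97, adjusted p = 1.00), a size exceeded by 712 transcripts, where the median size over all transcripts was 0.083.

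ID4, an ID protein known for its expression in the basal mammary epithelium, was dimmer, in level bin 2. It read 6.77, 6.86 and 6.94 after control siRNA and 6.88, 6.74 and 6.78 after HMGA1 siRNA, 2 sets of values that overlapped within a narrow range. The group means differed by -0.059 (SE 0.094, 95% interval -0.28 to 0.16, adjusted p = 1.00 from limma). A further transcript lists ID2 together with its pseudogene ID2B and is not a member. Its values were dim, from 3.39 to 3.58 over the 6 arrays, and its log2 fold change was -0.12 (SE 0.085), opposite in sign to that of the ID2 transcript.

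**Figure D1:**
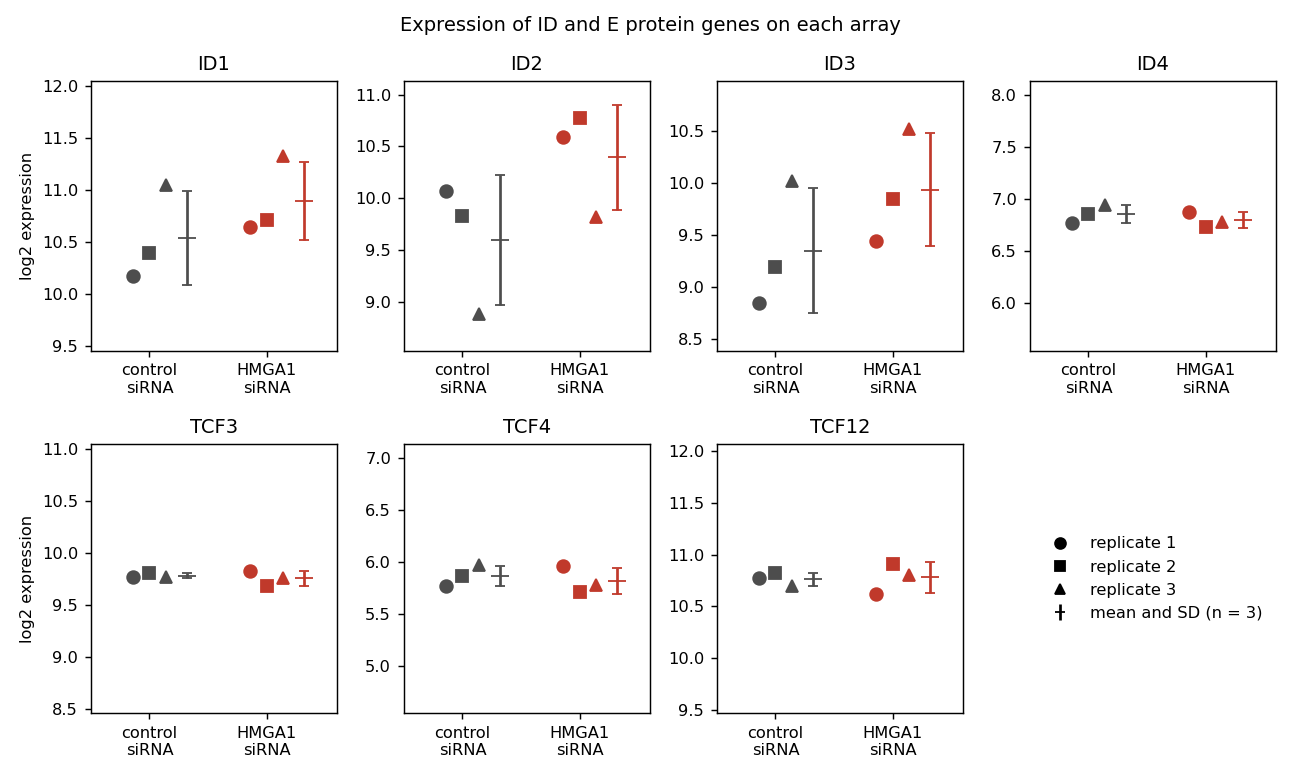
Log2 expression of each ID and E protein gene (7 panels) on the 3 control siRNA arrays (grey) and the 3 HMGA1 siRNA arrays (red), with the symbol giving the replicate number of the label and the bars beside them the mean and SD (n = 3). Every panel spans the same range of log2 units, and ID1, ID2 and ID3 spread widely within each group while ID4 and the E proteins do not.

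Among the E proteins, no member differed by more than 0.05 on the log2 scale between the group means, and none passed the test. TCF3, whose splice forms are E12 and E47, read 9.77, 9.81 and 9.77 after control siRNA and 9.83, 9.68 and 9.76 after HMGA1 siRNA. The groups overlapped, with a log2 difference of -0.025 (SE 0.087, adjusted p = 1.00 from limma). The 95% interval of the fold, 0.853 to 1.13, gives the size of difference that these arrays leave possible. TCF12, an E protein broadly expressed outside lymphocytes, read 10.78, 10.82 and 10.69 after control siRNA and 10.62, 10.91 and 10.80 after HMGA1 siRNA. Its groups overlapped too, with a log2 difference of 0.018 (SE 0.10, 95% interval of the fold 0.854 to 1.20, adjusted p = 1.00), and the sign turned after quantile normalization (-0.0028). TCF4, the E protein of plasmacytoid dendritic cells and of neural development, lay in level bin 1. It read 5.77, 5.86 and 5.97 after control siRNA and 5.96, 5.71 and 5.78 after HMGA1 siRNA, with overlapping groups and a log2 difference of -0.049 (SE 0.11, 95% interval of the fold 0.815 to 1.15, adjusted p = 1.00). At such low signals, background left in the values can compress differences, which was not measured here. The interval of TCF4, and to a lesser degree that of ID4, may therefore say less about the RNA than those of TCF3 and TCF12.

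Since ID proteins compete for the same E proteins, the ID genes were also set against the E protein genes within each array. The mean log2 level of the 4 ID genes less that of the 3 E protein genes was 0.20, 0.24 and 0.42 after control siRNA and 0.59, 0.75 and 0.83 after HMGA1 siRNA. Only differences of this quantity between arrays can be read, since probes of different genes differ in brightness. The groups did not overlap, although those of ID1, ID2 and ID3 each overlapped when taken alone. On the replicate 3 arrays ID2 was low where ID1 and ID3 were high, and such opposite gaps partly cancel in the mean. The share of other gene sets that separate in this way was not computed. The quantity was built from members whose differences were known, so no test is given. The mean of the E protein genes alone ran from 8.77 to 8.83 over the 6 arrays. That of the ID genes alone was 8.97, 9.07 and 9.22 after control siRNA and 9.39, 9.52 and 9.61 after HMGA1 siRNA. The separation was thus already present in the ID genes without the E protein genes.

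The replicate 3 arrays differed from the others of their group in opposite directions among the ID genes. ID1 was higher on replicate 3 than on the mean of replicates 1 and 2 by 0.76 with control siRNA and by 0.65 with HMGA1 siRNA. ID3 was higher by 1.00 and 0.88. ID2, in contrast, was at -1.06 and -0.86 in the same comparison. These gaps within groups were larger than the difference between the group means for each of the 3 genes, and they stood in both groups. For ID4 and the E proteins the gaps ran from -0.10 to 0.15 and had opposite signs in the 2 groups. CDH1, which encodes E-cadherin and carries E-boxes at which E proteins and SNAI factors act, read 9.40, 9.34 and 7.56 after control siRNA and 8.78, 9.01 and 7.28 after HMGA1 siRNA. It was thus low on both replicate 3 arrays, with gaps of -1.81 and -1.62, in the direction of ID2. Other luminal and HER2 markers went the other way, as EPCAM, KRT8, KRT19 and ERBB2 were highest on replicate 3 in each group. KRT19 was at 11.51 and 11.49 there, against 10.89 or less on the other arrays. Only GATA3 was, like CDH1, lowest on replicate 3 in both groups, by a small margin. CDH1 therefore does not stand for the epithelial markers. What sets the replicate 3 arrays apart was not tested, and the labels give no batch.

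**Figure D2:**
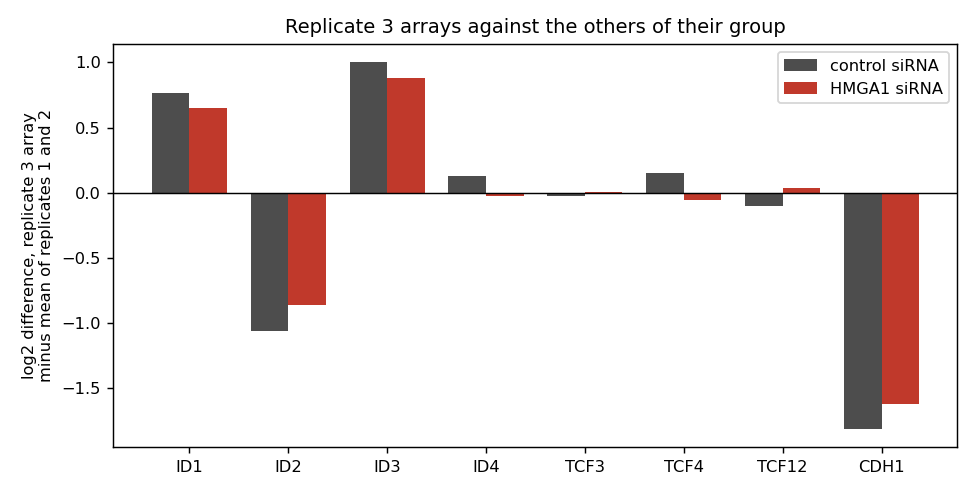
Log2 difference between the replicate 3 array and the mean of replicates 1 and 2 of the same group, for the ID and E protein genes and CDH1, with control siRNA in grey and HMGA1 siRNA in red (1 value per bar, so no error bar). ID1 and ID3 stand above 0 and ID2 and CDH1 below it in both groups, while the other genes lie near 0. Luminal markers that were high on replicate 3, such as EPCAM and KRT19, are not drawn.

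Without both replicate 3 arrays, the differences between HMGA1 siRNA and control siRNA were 0.39 for ID1, 0.73 for ID2 and 0.63 for ID3, and in each of the 3 genes both remaining HMGA1 siRNA arrays were higher than both controls. With 2 arrays against 2, 13.2% of all transcripts were separated upward in this way and 9.62% downward, and ID4 and the E proteins in neither direction. The adjusted p was 1.00 for each in limma. Leaving out these arrays was decided after the data were seen, so the values only describe the remaining arrays. With a single array left out, the size depended on which. For ID2 it was 0.45 when control siRNA replicate 3 was dropped and 1.09 when HMGA1 siRNA replicate 3 was, the lowest and highest of the 6 fits. For ID1 the extremes came from the same arrays in reverse, 0.61 when control siRNA replicate 3 was dropped and 0.14 when HMGA1 siRNA replicate 3 was. ID3 followed ID1, at 0.92 and 0.29. The 3 genes stayed above 0 in each of these fits. None of the 7 genes was among the transcripts whose groups did not overlap over all 6 arrays, which made up 7.79% of all transcripts (4.28% higher and 3.51% lower).

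**Figure D3:**
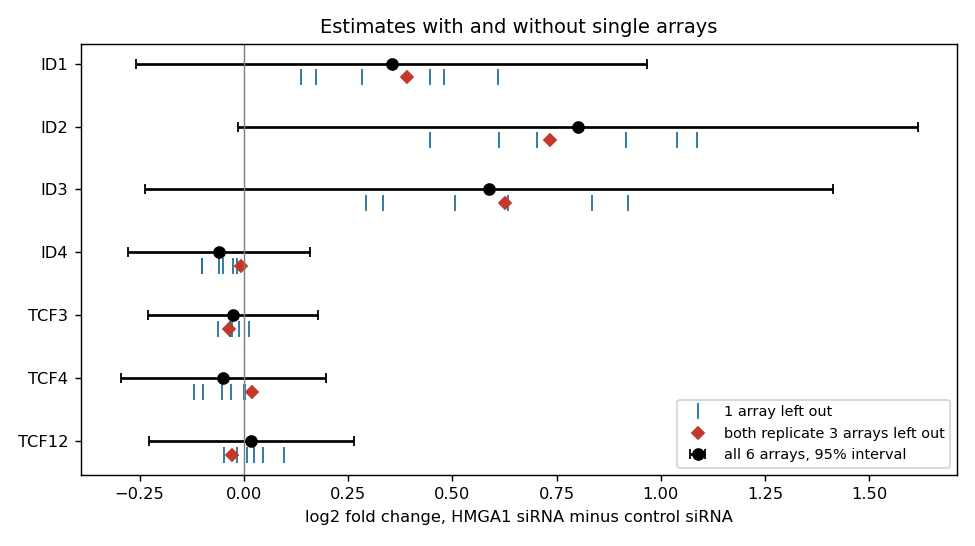
Log2 fold change of HMGA1 siRNA against control siRNA for the 7 genes (black points, all 6 arrays, with 95% intervals from limma), with the estimates after leaving out each array (blue ticks) and after leaving out both replicate 3 arrays (red diamonds). The intervals of all 7 genes include 0, and the estimates of ID1, ID2 and ID3 stay above 0 with any array left out.

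Genes whose pattern over the 6 arrays was most like that of an ID gene were taken by Pearson's r among the 633 genes with an SD of at least 0.3 over the arrays. The values describe 6 arrays that share the split by replicate 3, and they were not computed without the replicate 3 arrays, which would leave 4. ID1 and ID3 were each among the 5 genes most like the other, with r = 0.98. ID1 was followed by the secreted protein CCDC3, TXNDC12, a thioredoxin-like protein of the endoplasmic reticulum, and the insulin-like growth factor binding proteins IGFBP7 and IGFBP3 (all r = 0.96). For ID3 the closest was TXNDC12 (r = 0.99), then, after ID1, TMEM45A (r = 0.97), the regulator of G protein signalling RGS4 and the carboxypeptidase CPA4 (both r = 0.94). The genes most like ID2 were others. They were the adhesion proteins MPZL2 (r = 0.99) and MCAM (r = 0.98), FST, which encodes the activin and BMP binding protein follistatin (r = 0.98), the vesicle fusion protein BET1 (r = 0.98) and CSGALNACT1, an enzyme of chondroitin sulfate synthesis (r = 0.97). MCAM was at 9.78 (log2) on control siRNA replicate 1, 9.72 on replicate 2 and 9.21 on replicate 3. On the HMGA1 siRNA arrays it was at 10.37, 10.41 and 9.73. It shared with ID2 the low replicate 3 arrays and the higher mean with HMGA1 siRNA, which follows from its choice by r over the same arrays.

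Genes around the family were counted by lists chosen with earlier results of these data known, and no member of any list passed the test in either direction, where 0% of all transcripts did. Over all 14232 genes, 43.5% lay above 0 and the median log2 fold change was -0.019. The list of the BMP pathway, whose signals induce ID genes, also holds inhibitors such as NOG, CHRD and FST. Its counts therefore do not give the direction of the signal. Of its 21 measured genes, 7 lay above 0 and 14 below it, and the median was -0.0072. Quantile normalization turned it to 0.012 with 11 genes above 0, and leaving out HMGA1 siRNA replicate 2 to 0.064 with 15. FST had a log2 difference of 0.44 (SE 0.17), and its arrays were at 11.45, 11.43 and 10.99 with control siRNA and at 11.90, 11.85 and 11.44 with HMGA1 siRNA. SMAD5, a transducer of BMP signals, was at 0.24 (SE 0.12), SMAD1, its close relative, at -0.13 and the BMP antagonist CHRD at -0.15. The ligand BMP4, chosen after its values were seen, was bright and at -0.037 (SE 0.17). Of 15 measured response genes of SMAD1 and SMAD5 other than the ID genes, 8 lay above 0 (10 after quantile normalization) and 7 below. Their median of 0.043 turned to -0.068 without control siRNA replicate 1 and to -0.035 without HMGA1 siRNA replicate 3. The groups did not overlap in 2 of the 15, both higher with HMGA1 siRNA (4.28% of all transcripts). They were BAMBI, a decoy receptor that dampens TGF-beta and BMP signals, at 9.45, 9.30 and 9.38 with control siRNA and 9.46, 9.63 and 9.53 with HMGA1 siRNA (log2 difference 0.16, SE 0.093), and the inhibitory SMAD6, outside the rule for named genes (0.13, SE 0.091). TNFRSF11B, which encodes the decoy receptor osteoprotegerin, was at 0.25, the homeobox gene DLX5 at -0.096 and the osteoblast factor RUNX2 at -0.095.

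Of the tissue-specific partners of E proteins, 26 of 32 had a transcript of their own, and 24 of these lay below 0 and 2 above, with a median of -0.095. After quantile normalization 7 of the 26 lay above 0. Of the 26, 15 lay in level bins 1 and 2, where all genes had medians of -0.041 and -0.069 and 66.8% and 75.2% of genes lay below 0. The count depended on HMGA1 siRNA replicate 2, without which 13 of the 26 lay above 0 and the median was 0.00035. TAL2, a relative of TAL1, was at 6.35, 6.29 and 6.81 with control siRNA and 6.11, 5.95 and 5.57 with HMGA1 siRNA, a log2 difference of -0.61 (SE 0.19) in level bin 1. It was the only partner whose groups did not overlap (3.51% of all transcripts were lower in this way). ATOH1 was at -0.19, and the 2 genes above 0 were ATOH8 (0.11) and NEUROG3 (0.045). Of 10 measured repressors of the HES, HEY and BHLHE40 families, which are also helix-loop-helix proteins, 4 lay above 0 and 6 below, with a median of -0.034. Without HMGA1 siRNA replicate 2, 7 lay above 0 and the median turned to 0.022, and without HMGA1 siRNA replicate 3, 1 lay above 0 and it was -0.075. Leaving out control siRNA replicate 1 left 2 above 0 (median -0.080). BHLHE40 was at 0.12, HEY1 at 0.056, HES2 at -0.23 and HEYL at -0.13.

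**Figure D4:**
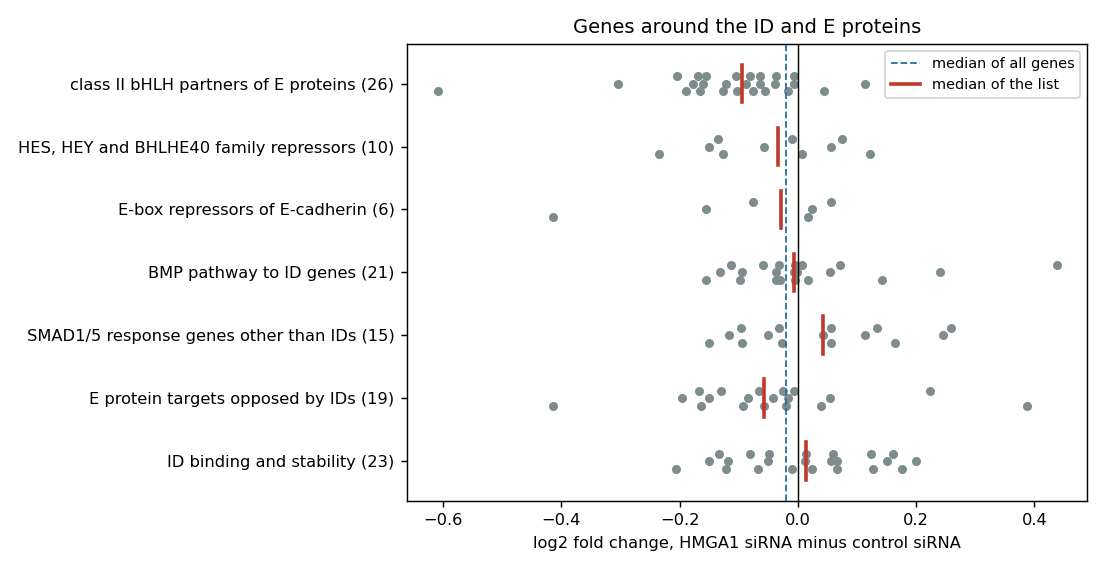
Log2 difference between HMGA1 siRNA and control siRNA for the measured genes of 7 lists around the ID and E proteins (1 point per gene, number of genes in brackets), with the median of each list (red) and of all genes (dashed blue). Most points lie within 0.25 of 0, and the partners of E proteins lie below 0 with 2 exceptions.

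Among genes reported as targets of E proteins whose regulation ID proteins oppose, several of them known from lymphocytes, 4 of 19 measured lay above 0 (6 after quantile normalization) and 15 below. Their median was -0.058. The list does not separate targets that E proteins turn on from those that they turn off. Its counts therefore do not give a direction of E protein activity. Without HMGA1 siRNA replicate 2, 14 of the 19 lay above 0 and the median was 0.015, and without control siRNA replicate 3 it was 0.00095. CDK6, a G1 kinase, was at 9.99, 10.08 and 10.08 with control siRNA and 10.17, 10.38 and 10.28 with HMGA1 siRNA. Its groups did not overlap (log2 difference 0.22, SE 0.094), as in 4.28% of all transcripts in this direction. No other of the 19 had groups that did not overlap. The interleukin-7 receptor gene IL7R was at 0.39 (SE 0.22), GFI1 at -0.16 and CXCR5 at -0.13. CDKN1A, which encodes the cell cycle inhibitor p21 and was chosen after its values were seen, was at 9.49, 9.48 and 9.97 with control siRNA and 9.29, 9.30 and 9.77 with HMGA1 siRNA. Its groups overlapped, the replicate 3 array was again the highest of each group, and the group means differed by -0.20 (SE 0.18). CDH1 itself had a log2 difference of -0.41, with an SE of 0.60. Of the 6 measured genes of the list of E-cadherin and its E-box repressors, 3 lay on each side of 0 and the median was -0.029. Without control siRNA replicate 1, 1 lay above 0 (median -0.074), and without HMGA1 siRNA replicate 1, 4 did and the median turned to 0.0086. Without control siRNA replicate 2 or HMGA1 siRNA replicate 2, 2 lay above 0. SNAI1 was at 0.056, ZEB2 at 0.018, ZEB1 at -0.076 and TWIST1, which also pairs with E proteins, at -0.16.

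Proteins that bind ID proteins or set their stability were the last list, with 13 of 23 measured genes above 0 and 10 below. The median was 0.013, and -0.0034 without both replicate 3 arrays. VHL, a ubiquitin ligase subunit that ID2 is known to bind, was at 9.01, 8.86 and 8.72 with control siRNA and 9.11, 9.20 and 8.88 with HMGA1 siRNA, groups that overlapped (log2 difference 0.20, SE 0.12). COPS5, a subunit of the COP9 signalosome, was at 0.16, and PAX8, of a family whose DNA binding ID proteins can block, at -0.21. ELK4, an ETS family factor of the kind that ID proteins bind, was at 10.45, 10.43 and 10.30 with control siRNA and 10.25, 10.26 and 10.28 with HMGA1 siRNA, so its groups did not overlap (-0.13, SE 0.089), as in 3.51% of all transcripts in this direction. The same held in the other direction (4.28% of all transcripts) for FZR1, an activator of the anaphase-promoting complex (0.12, SE 0.088), and FHL2, a LIM protein that binds ID proteins (0.13, SE 0.085), both outside the rule for named genes.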

How the data were processed

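Values deposited by the authors were on the log2 scale, 22011 transcripts on each of 6 arrays, from RMA (background correction, normalization between arrays and probe summary) in the oligo package. The submitters' processing notes also name limma and hg18, without versions. Array values carry no read depth, and 3 arrays per group limit the precision. Names came from the annotation of the platform, with symbols updated through Entrez identifiers (14432 with 1 symbol, 2408 with several, 5171 unnamed here). A gene was the transcript of highest mean that lists it alone. The moderated two-sided test of limma 3.58.1 (R 4.3.3) compared the groups without covariates. P-values were adjusted across every transcript by Benjamini-Hochberg and read at 0.05. The labels call the samples biological replicates. The members, lists and tests were chosen with earlier results of these data known. Named genes were the members, HMGA1, up to 2 genes per side and list with the smallest p, and the 5 genes most like each of ID1, ID2 and ID3. The steps were tested on simulated data. Alternatives were other normalization, centring, a filter on dim transcripts, priors, array weights, the replicate block, an unmoderated test, 1-symbol transcripts, a threshold of 0.10, the mean over a gene's transcripts and leaving out each array. Leaving out both replicate 3 arrays, and a term for them, were added after seeing the data. Promoter sequences are from RefSeq (GRCh38.p14) and matched all 7 members by symbol (1 start each for the ID genes and TCF3, 10 for TCF4 and 5 for TCF12). Their coordinates are not those of the authors' build. Figures were drawn with matplotlib 3.10.9.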

Additional observations from a re-analysis of the deposited data

How the results depend on the processing

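With array weights, 198 transcripts passed, 0 of the 7 genes among them, and ID1, ID2 and ID3 were at 0.86, 0.12 and 1.25. There HMGA1 siRNA replicate 3 carried a weight of 6.80, against 0.275 to 2.21 for the other arrays. In the other fits 0 transcripts passed, leaving out single arrays included, and the unmoderated test gave 855 at an unadjusted p under 0.05. ID1, ID2, ID3 and ID4 kept their direction in every setting that held them, and no member passed in any. TCF12 turned to -0.0028 after quantile normalization and to -0.028 without both replicate 3 arrays, where TCF4 turned to 0.020. With 1 array left out, TCF3 ran from -0.062 to 0.013, TCF4 from -0.12 to 0.0022 and TCF12 from -0.049 to 0.096. The list medians then ran from -0.068 to 0.074 for response genes of SMAD1 and SMAD5, from -0.11 to 0.015 for E protein targets, from -0.057 to 0.064 for the BMP pathway, from -0.025 to 0.054 for ID binding and stability, from -0.080 to 0.022 for the HES, HEY and BHLHE40 families, from -0.074 to 0.0086 for E-cadherin and its repressors and from -0.18 to 0.00035 for the partners of E proteins. With the replicate block, ID1, ID2 and ID3 had unadjusted p of 0.00925, 0.00125 and 0.000907 and adjusted p of 0.921, 0.719 and 0.677 from limma. This fit gave 1118 transcripts at an unadjusted p under 0.05 and 0 after adjustment. The main fit had no covariates because the methods name none, and the labels' numbers were not taken as pairs. The deviations of same-numbered arrays from their group means correlated at -0.20, 0.26 and 0.53 for numbers 1, 2 and 3. Those of arrays with different numbers ran from -0.54 to 0.42. The 3 deviations of a group sum to 0, so these correlations cannot decide whether the numbers mark pairs. With a term for the replicate 3 arrays the adjusted p were 0.856, 0.303 and 0.852. ID4 and TCF4 are left out with the dimmest 40% of transcripts, and their dim signal limits what their values show.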
